A study of Homo sapiens with 6 samples.

Results

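The RNA of 49 genes for subunits and assembly factors of the proteasome was examined in 2 prostate cancer cell lines treated with inhibitors of the chaperone HSP70. The members are the protein-coding genes whose symbol starts with PSMA, PSMB, PSMC, PSMD, PSME, PSMF or PSMG, without PSMC3IP, and the maturation factor POMP. They are 49 of the 60658 genes listed for each library and of 19687 listed protein-coding genes. The rule uses no expression value, but the members were chosen with earlier results of these data known. By role they are 7 genes of the alpha ring (PSMA1 to PSMA7) and 7 of the constitutive beta ring (PSMB1 to PSMB7), 3 immunoproteasome subunits (PSMB8, PSMB9 and PSMB10) and 2 tissue-restricted subunits (PSMA8 and PSMB11). The regulatory cap gives 6 ATPases (PSMC1 to PSMC6) and 11 non-ATPase subunits (PSMD genes), with 3 cap assembly chaperones (PSMD5, PSMD9 and PSMD10). The others are 4 activators (PSME1 to PSME4), the regulator PSMF1 and 5 core assembly chaperones (PSMG1 to PSMG4 and POMP).

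C4-2B MDVR, an enzalutamide-resistant derivative of the C4-2B line, and CWR22Rv1, a castration-resistant line from a prostate cancer xenograft, were exposed for 48 h to vehicle (DMSO) or to an HSP70 inhibitor at 10 µM, either apoptozole (APO) or VER155008 (VER), which block ATP hydrolysis by HSP70. C4-2B MDVR was maintained in medium with the androgen receptor antagonist enzalutamide at 20 µM and CWR22Rv1 in medium without it, so cell line and enzalutamide cannot be told apart. The paper does not state whether enzalutamide was present during the 48 h of treatment. The source field of the C4-2B MDVR libraries reads LNCaP-C4-2B, and all 6 libraries carry the cell type parental, but the titles say C4-2B MDVR and were followed. Each of the 6 conditions is a single library, so no difference here could be checked against replicates and no test was made.

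The proteasome is the protease that degrades proteins tagged with ubiquitin. Its barrel-shaped 20S core is built from rings of alpha and beta subunits, and PSMB5, PSMB6 and PSMB7 carry the constitutive active sites. The 19S cap binds ubiquitinated proteins, removes the ubiquitin and unfolds the chain with a ring of ATPases. Interferon signalling replaces the active subunits by PSMB8, PSMB9 and PSMB10 and raises the activator pair PSME1 and PSME2, which favours peptides for antigen presentation. The transcription factor NFE2L1 raises proteasome genes through antioxidant response elements when proteasome capacity is short. In prostate cancer cells the androgen receptor is among the proteins that the proteasome degrades after ubiquitination, a route the study asked about.

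The promoters of 6 members are shown because they carry the sequence elements of those control routes in the genes on which the immunoproteasome and activator results turn, and in PSMD9. The table of RefSeq promoters (GRCh38.p14, 250 bases before to 50 after the annotated start) held 52 promoters of 43 members. Elements were searched on both strands. The antioxidant response element core TGACNNNGC was in 15 of the 52 promoters (28.8%) and in 13.3% of all 35116 promoters of the table. Its carriers were PSMA4, PSMB3, PSMB9, PSMC4, PSMC5, PSMD1, PSMD3, PSMD5, PSMD9, PSMD12, PSME1, PSME2, PSME4, PSMG1 and PSMG2. The interferon response element core GAAANNGAA was in 9 (17.3%), against 8.11% of all. It was found for POMP, PSMA4, PSMB4, PSMB8, PSMB10, PSMC2, PSME1, PSME2 and PSMG4. The CCAAT box was in 20 (38.5%), against 34.6%, the heat shock element unit GAANNTTC in 0, against 6.77%, and the ATF4 element core TGATGNAA in 1 (1.92%), that of PSMF1, against 3.62%. These matches are a description of letters and not of binding. In the sequences below, each 5′ to 3′ on the strand of its gene, capitals mark these elements, and none of the marked elements overlap each other.
PSMB8, chr6:32843998-32844297, minus strand: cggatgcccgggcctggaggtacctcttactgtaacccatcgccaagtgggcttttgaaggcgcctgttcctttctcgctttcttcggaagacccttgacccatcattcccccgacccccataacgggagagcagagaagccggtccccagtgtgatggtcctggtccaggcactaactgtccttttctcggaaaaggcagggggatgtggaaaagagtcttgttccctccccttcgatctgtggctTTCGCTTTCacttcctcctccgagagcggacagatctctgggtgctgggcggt
PSMB9, chr6:32853942-32854241, plus strand: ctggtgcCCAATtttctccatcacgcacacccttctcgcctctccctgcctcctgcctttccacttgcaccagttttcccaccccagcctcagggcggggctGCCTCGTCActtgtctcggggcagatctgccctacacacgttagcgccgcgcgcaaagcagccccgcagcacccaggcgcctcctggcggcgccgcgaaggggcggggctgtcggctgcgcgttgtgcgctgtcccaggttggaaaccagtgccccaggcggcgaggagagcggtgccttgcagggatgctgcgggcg
PSMB10, chr16:67936801-67937100, minus strand: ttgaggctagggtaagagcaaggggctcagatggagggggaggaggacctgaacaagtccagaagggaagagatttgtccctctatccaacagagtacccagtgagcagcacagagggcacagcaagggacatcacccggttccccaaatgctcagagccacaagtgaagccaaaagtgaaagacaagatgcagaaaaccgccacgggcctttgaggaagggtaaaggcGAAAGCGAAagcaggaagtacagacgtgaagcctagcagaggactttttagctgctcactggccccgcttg
PSME1, chr14:24135944-24136243, plus strand: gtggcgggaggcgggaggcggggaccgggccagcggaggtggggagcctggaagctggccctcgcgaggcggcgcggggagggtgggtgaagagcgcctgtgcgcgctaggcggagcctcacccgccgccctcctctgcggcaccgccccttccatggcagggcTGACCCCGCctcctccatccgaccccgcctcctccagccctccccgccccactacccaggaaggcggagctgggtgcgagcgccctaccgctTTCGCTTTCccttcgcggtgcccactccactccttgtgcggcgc
PSME2, chr14:24146561-24146860, minus strand: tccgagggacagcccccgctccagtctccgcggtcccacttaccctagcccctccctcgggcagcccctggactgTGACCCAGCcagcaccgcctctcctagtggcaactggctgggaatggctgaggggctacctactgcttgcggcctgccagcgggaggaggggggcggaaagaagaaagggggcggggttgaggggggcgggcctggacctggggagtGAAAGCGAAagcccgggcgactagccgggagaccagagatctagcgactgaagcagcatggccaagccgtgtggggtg
PSMD9, chr12:121888540-121888839, plus strand: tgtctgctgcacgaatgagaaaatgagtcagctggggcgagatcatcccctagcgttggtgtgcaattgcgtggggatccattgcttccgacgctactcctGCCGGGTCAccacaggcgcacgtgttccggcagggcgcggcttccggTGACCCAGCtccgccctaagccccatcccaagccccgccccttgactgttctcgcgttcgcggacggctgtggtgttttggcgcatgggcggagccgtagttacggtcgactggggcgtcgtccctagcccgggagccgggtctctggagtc
PSMB8, PSMB10, PSME1 and PSME2 hold the interferon element, written as GAAAGCGAA or on the other strand as TTCGCTTTC. Its first base lies at -3 in PSMB8, -21 in PSMB10, -28 in PSME2 and 6 in PSME1, counted from the annotated start. PSMB9 holds a CCAAT box and an antioxidant element core and no match to the interferon core in this window, and PSMD9 holds 2 antioxidant element cores. PSMD3, whose promoter is not shown, also holds 2. Among carriers of this core, PSMD9 was higher after VER in both lines, while PSMC5, PSMD1, PSMD3, PSMD12 and PSMG1 were lower in both. A link between the element and the direction of change was not tested. PSMB8 has a further promoter in the table, which held none of the elements.

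The values are FPKM, fragment numbers scaled by transcript length and by library size, which the authors normalized between libraries. Differences are given as log2 fold changes of FPKM + 0.1, and a gene was counted as higher or lower when it differed by more than 1.2-fold. Values in parentheses after the levels of a gene are its log2 fold changes against DMSO, for APO and then for VER, except between the lines, where there is 1. Genes above 0.1 FPKM in at least 1 library of the line were compared. With 1 library per condition these counts describe the libraries, and for the counts of members the percentage of all compared genes past the same threshold is given. The deposited tables give no read totals. Depth was estimated from the most frequent low value of FPKM times length in kilobases among genes with 1 transcript. This put the value of 1 fragment per kilobase between 0.0438 and 0.0726 FPKM. Relative depths were 1 for the C4-2B MDVR DMSO library, 1.66 for APO and 1.16 for VER in that line, and 1.15 to 1.24 in CWR22Rv1. The part of all FPKM that fell on mitochondrial genes was 15.5%, 14.8% and 16.4% for DMSO, APO and VER in C4-2B MDVR. In CWR22Rv1 it was 25.7%, 10.4% and 25.7%. All 8 prostate luminal markers were above 1 FPKM in every library, with a sum between 824 and 1207 FPKM. Of 5 leukocyte markers, PTPRC stayed at or below 0.0323 FPKM, and LCP1 gave the largest part of their sum (3.60 to 29.3 FPKM) in every library. The 4 fibroblast markers summed to 6.91 to 31.6 FPKM and the 3 endothelial markers to at most 0.294 FPKM.

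Of the 49 members, 47 were above 0.1 FPKM in at least 1 library and entered the comparisons in both lines. PSMB11, the beta subunit of the thymus proteasome, was listed at 0 in all 6 libraries. PSMA8, the alpha subunit of the testis proteasome, was listed at 0 in 5 libraries and at 0.0483 FPKM in CWR22Rv1 with APO. These are the members that the threshold left out.

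The 20S core was the most abundant group per length. The median level of its 14 subunits was 162 FPKM for C4-2B MDVR with DMSO, 204 after APO and 155 after VER. In CWR22Rv1 cells it was 143, 157 and 143 FPKM. The 17 cap subunits had lower medians, 88.3, 101 and 79.9 FPKM in C4-2B MDVR and 66.8, 77.5 and 59.8 FPKM in CWR22Rv1. PSMB4, a structural beta subunit, was the highest member of the beta ring in every library (369 to 564 FPKM), and PSMB2 the lowest (42.0 to 78.4 FPKM). Within the alpha ring the highest gene was 2.78 to 4.18 times the lowest. All members together held 0.771%, 0.800% and 0.683% of the summed FPKM with DMSO, APO and VER in C4-2B MDVR, and 0.571%, 0.721% and 0.519% in CWR22Rv1. Without mitochondrial genes the shares were 0.913%, 0.938% and 0.817%, and 0.769%, 0.805% and 0.698%. On both bases the order in each line was APO, DMSO and VER from high to low, and the gap between APO and DMSO in CWR22Rv1 was narrower on the second.

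**Figure D1:**
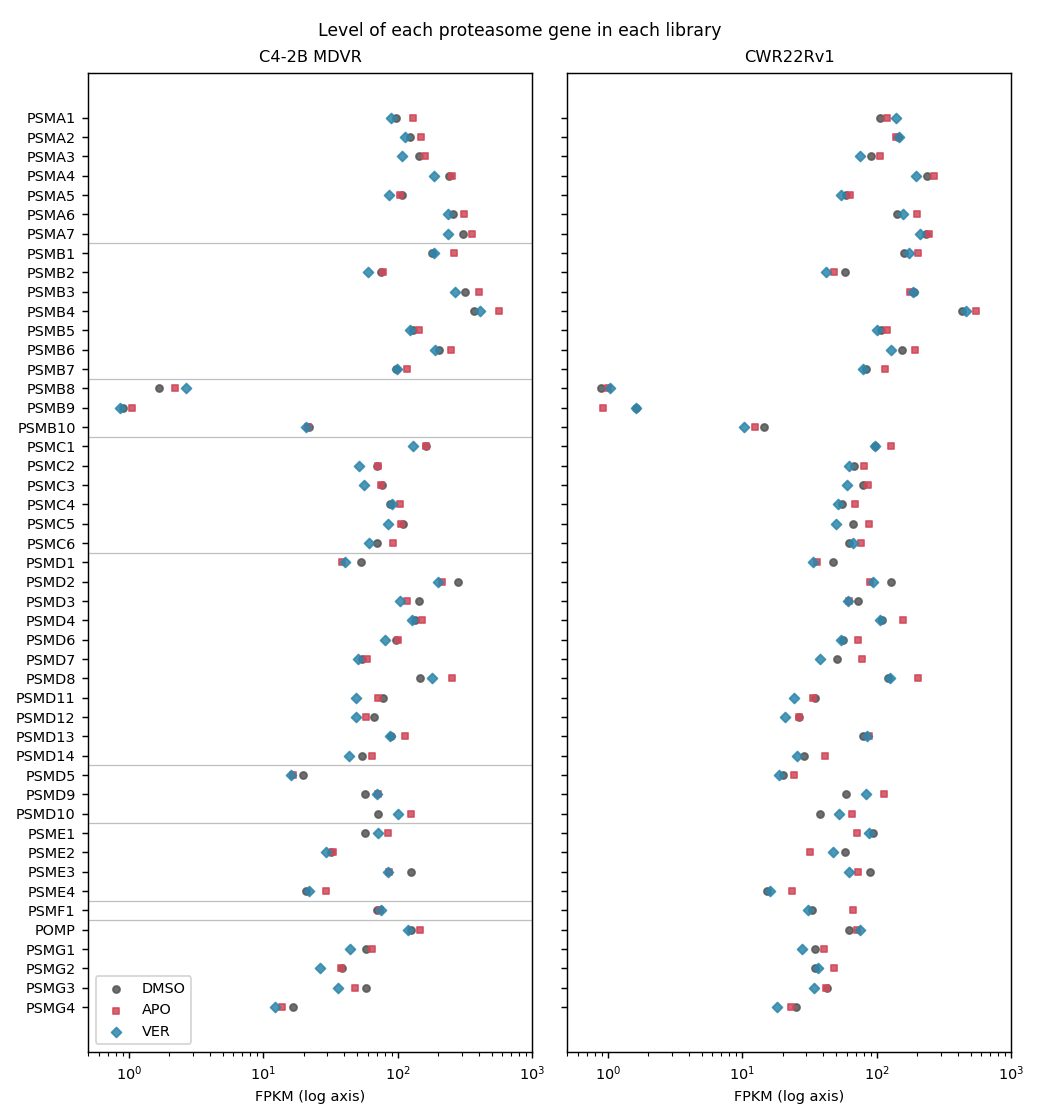
FPKM (log axis) of the 47 members above 0.1 FPKM in at least 1 library, with 1 point for each library: circles DMSO, squares APO, diamonds VER, grouped by role with horizontal lines between groups. PSMB8 and PSMB9 sit between 0.857 and 2.68 FPKM, PSMB10 between 10.3 and 21.7, and the lowest value of any further member is 12.2 FPKM, for PSMG4.

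With DMSO, proteasome genes were mostly higher in C4-2B MDVR than in CWR22Rv1 cells. Of 47 members, 28 (59.6%) were higher by more than 1.2-fold, against 35.5% of 23671 genes, and 4 (8.51%) were lower, against 39.9%. The members' median log2 fold change was 0.39, against 0.00 for all genes compared and 0.12 for protein-coding genes with a mean above 10 FPKM, of which 42.2% were higher and 30.0% lower. Rescaling each library to a median ratio of 1 gave 24 higher and 6 lower members and a median of 0.27, where 32.3% of all genes were higher and 43.0% lower. The cap stood further apart than the core. Of its 17 subunits 11 were higher and 0 lower, with a median of 0.68, and of the 14 core subunits 8 were higher and 0 lower, with a median of 0.32. In RNA from whole cultures, fewer expressing cells and less RNA per cell cannot be told apart.

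The largest differences between the lines were in 3 non-ATPase subunits of the cap. PSMD12, a scaffold subunit of the lid of the cap, was at 66.2 FPKM in C4-2B MDVR and 26.6 FPKM in CWR22Rv1, a log2 fold change of 1.32. PSMD11, another lid subunit, was at 78.2 and 34.8 FPKM (1.16), and PSMD2, the large base subunit that binds ubiquitin-like domains, at 283 and 127 FPKM (1.16). PSMF1, the proteasome inhibitor subunit also called PI31, was at 70.1 and 32.8 FPKM (1.09), and POMP, which guides maturation of the core, at 125 and 61.9 FPKM (1.01). The 4 members lower in C4-2B MDVR were PSME2, PSMB9, PSME1 and PSMG4. PSME2 was at 31.9 FPKM against 58.6 (-0.87), PSMB9 at 0.902 against 1.62 (-0.78), PSME1 at 57.6 against 94.4 (-0.71) and PSMG4 at 16.6 against 24.9 (-0.58). The first 3 of these belong to the interferon-inducible branch, but PSMB8 (1.69 against 0.891 FPKM, 0.85) and PSMB10 (21.7 against 14.5 FPKM, 0.58) lay on the opposite side.

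After APO in C4-2B MDVR cells, 16 members (34.0%) were higher by more than 1.2-fold, against 37.7% of 20122 genes, and 5 (10.6%) were lower, against 35.4%. The share of higher members was thus near that of all genes, and lower members were fewer. The median was 0.16, against 0.00 for all genes and 0.01 for protein-coding genes above 10 FPKM, of which 33.7% were higher and 31.7% lower. This split depended on scale. With every library rescaled to the same sum (TPM), the members gave 7 higher and 9 lower, with a median of 0.01, where genes above 1 FPKM had a median of -0.12. Of all genes, 32.2% were higher and 42.2% lower on this scale. The counts for the core and the cap were 8 core subunits higher and 0 lower (median 0.27, or 0.12 under TPM) and 3 cap subunits higher and 3 lower (median 0.02, or -0.13 under TPM).

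After APO in CWR22Rv1 cells, 19 members (40.4%) were higher, against 35.6% of 21608 genes, and 7 (14.9%) lower, against 39.2%. The median was 0.20, against -0.01 for all genes and 0.03 for protein-coding genes above 10 FPKM, of which 35.7% were higher and 33.1% lower. Under TPM the split was 28 higher and 5 lower with a median of 0.32, where genes above 1 FPKM had a median of 0.10. Of all genes, 40.3% were then higher and 35.5% lower. Mitochondrial genes held 10.4% of the FPKM of this APO library and 25.7% of its DMSO control, and their part in the split was not tested. Here the cap was the higher group, with 9 subunits higher and 2 lower (median 0.32), against 5 higher and 1 lower in the core (median 0.17). The order of core and cap after APO was thus not the same in the 2 lines, and that difference was not tested.

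After VER in C4-2B MDVR cells, 5 members (10.6%) were higher, against 35.6% of genes, and 22 (46.8%) lower, against 34.9%. The median was -0.21, against 0.00 for all genes and -0.03 for protein-coding genes above 10 FPKM, of which 30.3% were higher and 33.2% lower. Cap subunits made up 11 of the 22 (median -0.33), with 1 cap subunit higher, and core subunits 5 (median -0.13), with 0 higher. After VER in CWR22Rv1 cells, 4 members (8.51%) were higher, against 32.1%, and 17 (36.2%) lower, against 32.3%. The median was -0.10, against 0.00 for all genes and -0.04 for protein-coding genes above 10 FPKM, of which 24.5% were higher and 28.8% lower. The cap gave 8 lower and 0 higher (median -0.17) and the core 3 lower and 1 higher (median -0.09). Rescaling to a median ratio of 1 left 14 lower members in CWR22Rv1, where 30.9% of all genes were lower. The share of lower members in that line was near the background.

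**Figure D2:**
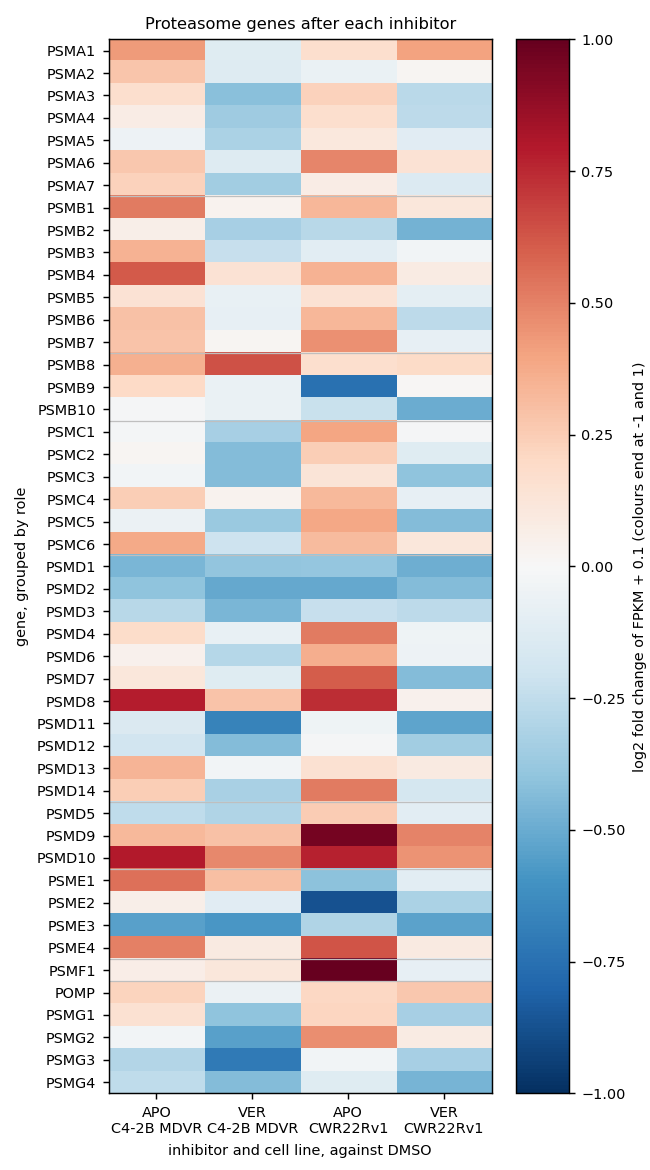
Log2 fold change of FPKM + 0.1 against DMSO for 47 members (rows, grouped by role) and each inhibitor and line (columns), red higher and blue lower, with colours ending at -1 and 1. The VER columns are mostly blue. By more than 1.2-fold, PSMD9 and PSMD10 are red in each VER column, and PSMD1, PSMD2 and PSME3 are blue in each column. Further members share these colours with some of their changes within 1.2-fold.

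The core and the cap were also divided into their rings, each of few genes. Of all genes compared in C4-2B MDVR, 37.7% were higher and 35.4% lower after APO and 35.6% and 34.9% after VER. In CWR22Rv1 these percentages were 35.6% and 39.2%, and 32.1% and 32.3%. Of the 7 alpha ring genes, 3 were higher and 0 lower after APO in C4-2B MDVR (median 0.23) and 1 and 0 in CWR22Rv1 (0.17), while after VER 0 were higher and 4 lower (-0.32) and 1 and 2 (-0.11). Of the 7 beta ring genes, which include the active sites, 5 were higher and 0 lower after APO in C4-2B MDVR (0.30) and 4 and 1 in CWR22Rv1 (0.33). After VER 0 were higher and 1 lower in each line (-0.08 in both), and this 1 was PSMB2 in each. The 6 ATPases, which unfold the substrate, gave 1 higher and 0 lower after APO in C4-2B MDVR (0.00) and 4 and 0 in CWR22Rv1 (0.32), and after VER 0 and 4 (-0.35) and 0 and 2 (-0.10). The 11 non-ATPase subunits held both directions after APO, with 2 higher and 3 lower in C4-2B MDVR, from PSMD1 at -0.46 to PSMD8 at 0.79, and 5 and 2 in CWR22Rv1, from PSMD2 at -0.52 to PSMD8 at 0.74. After VER they gave 1 higher and 7 lower (-0.33) and 0 higher and 6 lower (-0.27). Differences between rings of this size were not tested.

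The lines share no library. After APO, 10 members (21.3%) were higher by more than 1.2-fold in both, the same as the 21.3% of 18059 genes compared in both, and 3 (6.38%) were lower in both, against 21.6%. After VER, 2 members (4.26%) were higher in both lines, against 17.9%, and 14 (29.8%) were lower in both, against 18.2%. Across the 47 members the log2 fold changes of the lines correlated with a Spearman's rho of 0.43 and a Pearson's r of 0.45 for APO, and of 0.66 for both measures for VER. The same measures were 0.60 and 0.65 for APO and 0.66 and 0.67 for VER over 7531 protein-coding genes above 10 FPKM. These are correlations across genes of the same libraries, and genes are not independent replicates.

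The 10 members higher after APO in both lines were PSMA6, PSMB1, PSMB4, PSMB6, PSMB7, PSMC6, PSMD8, PSMD9, PSMD10 and PSME4. This list depended on scale. Under TPM 5 of the 10 stayed, and PSMA6, PSMB6, PSMB7, PSMC6 and PSMD9 were within 1.2-fold of DMSO in at least 1 line, while all 10 stayed with each library rescaled to a median ratio of 1. The members with the highest log2 fold changes in C4-2B MDVR were PSMD10, PSMD8 and PSMB4. PSMD10, the cap assembly chaperone gankyrin, was at 71.8 FPKM with DMSO, 125 after APO and 100.1 after VER in C4-2B MDVR and at 38.2, 65.3 and 52.1 FPKM in CWR22Rv1. It was lowest with DMSO and highest with APO in each line, with log2 fold changes of 0.80 for APO and 0.48 for VER in C4-2B MDVR and 0.77 and 0.45 in CWR22Rv1. PSMD8, a lid subunit of the cap, was at 148, 255 and 180 FPKM in C4-2B MDVR with DMSO, APO and VER (0.79 and 0.29). In CWR22Rv1 it was at 122, 204 and 126 FPKM (0.74 and 0.04). PSMB4 was at 369, 564 and 409 FPKM in C4-2B MDVR (0.61 and 0.15) and at 433, 552 and 459 FPKM in CWR22Rv1 (0.35 and 0.08).

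PSMD9, a cap assembly chaperone that binds the ATPase ring, was among the highest changes in CWR22Rv1. There it was at 58.7 FPKM with DMSO, 114 after APO and 82.8 after VER (0.95 and 0.50). In C4-2B MDVR it was at 57.0, 71.4 and 69.8 FPKM (0.32 and 0.29). The value for APO in C4-2B MDVR was 0.18 under TPM, which is within 1.2-fold. PSMD9 and PSMD10 were the members higher after VER in both lines. The third cap chaperone, PSMD5, did not follow them, at 19.7, 16.5 and 16.0 FPKM in C4-2B MDVR (-0.25 and -0.30) and 20.2, 24.1 and 18.8 FPKM in CWR22Rv1 (0.25 and -0.10). The span of PSMD5 contains part of the antisense gene CUTALP, at 6.89 to 19.5 FPKM, and the strand setting of the counting is not stated.

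The 3 members lower after APO in both lines were PSMD1, PSMD2 and PSME3, of which PSMD1 and PSMD2 stayed under TPM. PSMD2 was at 283 FPKM with DMSO, 214 after APO and 199 after VER in C4-2B MDVR (-0.40 and -0.51) and at 127, 88.9 and 94.2 FPKM in CWR22Rv1 (-0.52 and -0.43). PSMD1, the other large base subunit of the cap, was at 53.2, 38.7 and 40.5 FPKM in C4-2B MDVR (-0.46 and -0.39) and at 47.3, 36.2 and 33.8 FPKM in CWR22Rv1 (-0.39 and -0.49). Both genes were highest with DMSO in each line. They code for the pair of toroid-shaped subunits of the cap base.

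After VER the 14 members lower in both lines spread over the roles: PSMA3 and PSMA4 of the alpha ring, PSMB2, the ATPases PSMC3 and PSMC5, PSMD1, PSMD2, PSMD3, PSMD11 and PSMD12 of the cap, PSME3, and the core chaperones PSMG1, PSMG3 and PSMG4. All 14 stayed under TPM, and 11 stayed with each library rescaled to a median ratio of 1, where PSMA3, PSMA4 and PSMD3 did not. PSMD11 was at 78.2 FPKM with DMSO, 70.8 after APO and 49.1 after VER in C4-2B MDVR (-0.14 and -0.67) and at 34.8, 33.8 and 24.2 FPKM in CWR22Rv1 (-0.04 and -0.53). In each line the VER library stood below the others. PSMA1, an alpha ring subunit, went the other way in CWR22Rv1, at 106, 119 and 140 FPKM (0.17 and 0.40), and not in C4-2B MDVR, at 97.6, 131 and 89.5 FPKM (0.42 and -0.12).

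The core is assembled by the PSMG1 and PSMG2 pair, the PSMG3 and PSMG4 pair and POMP. PSMG3 was at 58.6, 47.8 and 35.9 FPKM with DMSO, APO and VER in C4-2B MDVR (-0.29 and -0.71), the lowest log2 fold change of any member after VER in that line, and at 43.0, 42.2 and 34.1 FPKM in CWR22Rv1 (-0.03 and -0.33). Its partner PSMG4 was at 16.6, 13.9 and 12.2 FPKM (-0.25 and -0.43) and at 24.9, 22.9 and 18.0 FPKM (-0.12 and -0.47). VER gave the lowest level of this pair in each line. PSMG1 was at 57.9, 64.5 and 43.9 FPKM in C4-2B MDVR (0.16 and -0.40) and 35.0, 40.6 and 27.7 FPKM in CWR22Rv1 (0.21 and -0.33). PSMG2 was at 38.6, 37.8 and 26.5 FPKM in C4-2B MDVR (-0.03 and -0.54) and 34.8, 48.2 and 36.8 FPKM in CWR22Rv1 (0.47 and 0.08). POMP was at 125, 146 and 120 FPKM in C4-2B MDVR (0.23 and -0.05) and 61.9, 71.3 and 74.5 FPKM in CWR22Rv1 (0.20 and 0.27). Its VER value in CWR22Rv1 was just past 1.2-fold and was 0.20 under TPM.

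The activators open the core without the cap. PSME3, the nuclear activator PA28 gamma, was at 126 FPKM with DMSO, 86.6 after APO and 84.4 after VER in C4-2B MDVR (-0.55 and -0.58) and at 89.7, 72.9 and 61.8 FPKM in CWR22Rv1 (-0.30 and -0.54). It was highest with DMSO in each line, and its APO value in CWR22Rv1 was -0.18 under TPM. PSME4, the activator PA200, was at 20.7, 29.5 and 22.1 FPKM in C4-2B MDVR (0.51 and 0.09) and 15.3, 23.6 and 16.2 FPKM in CWR22Rv1 (0.63 and 0.09). For PSME4 the APO library stood above the others in each line.

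PSME1 and PSME2 code for PA28 alpha and beta, which form 1 ring, and after APO they differed between the lines. PSME1 was at 57.6 FPKM with DMSO, 84.4 after APO and 71.1 after VER in C4-2B MDVR (0.55 and 0.30). In CWR22Rv1 it was at 94.4, 71.1 and 87.5 FPKM (-0.41 and -0.11), and it was the 1 member past 1.2-fold in opposite directions after APO. PSME2 was at 31.9, 33.2 and 29.5 FPKM in C4-2B MDVR (0.06 and -0.11) and at 58.6, 32.0 and 47.1 FPKM in CWR22Rv1 (-0.87 and -0.32), the lowest log2 fold change of any member after APO. The 5′ end of PSME2 overlaps the antisense gene RNF31, which was at 20.5, 20.6 and 20.1 FPKM in C4-2B MDVR and 40.6, 25.7 and 29.7 FPKM in CWR22Rv1. RNF31 thus had its highest value in the library where PSME2 had its own, and the part of overlapping reads was not tested.

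PSMF1 gave the largest difference from DMSO of any member. In CWR22Rv1 it was at 32.8 FPKM with DMSO, 66.4 after APO and 31.0 after VER, with log2 fold changes of 1.01 and -0.08. In C4-2B MDVR it was at 70.1, 73.5 and 75.8 FPKM (0.07 and 0.11). The APO library of CWR22Rv1 was thus near the level of the 3 C4-2B MDVR libraries. TMEM74B, an antisense gene within its span, was lower in that library, at 7.19 FPKM against 13.5 with DMSO and 16.1 with VER.

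Immunoproteasome subunits were minor transcripts in each library. PSMB8 (LMP7, chr6:32840717-32844703, minus strand, GRCh38) was at 1.69 FPKM with DMSO, 2.19 after APO and 2.68 after VER in C4-2B MDVR (0.36 and 0.64) and at 0.891, 1.01 and 1.03 FPKM in CWR22Rv1 (0.16 and 0.19). PSMB9 (LMP2, chr6:32844136-32859585, plus strand) was at 0.902, 1.05 and 0.857 FPKM in C4-2B MDVR (0.20 and -0.07) and at 1.62, 0.924 and 1.63 FPKM in CWR22Rv1 (-0.75 and 0.01). PSMB10 (MECL-1, chr16:67934502-67937087, minus strand) was at 21.7, 21.6 and 20.8 FPKM in C4-2B MDVR (-0.01 and -0.06) and 14.5, 12.5 and 10.3 FPKM in CWR22Rv1 (-0.22 and -0.50). The 3 subunits did not move together after either inhibitor. The PSMB8 and PSMB9 values rest on few fragments, an estimated 14.1 to 50.0 per kilobase for PSMB8 and 12.4 to 27.7 for PSMB9, against 175 to 492 for PSMB10. The spans of PSMB8 and PSMB9 overlap on opposite strands, and that of PSMB9 also overlaps TAP1, so their reads are uncertain where strand was not used. The PSMB8 value for APO in C4-2B MDVR was 0.22 under TPM and 0.25 with a pseudocount of 1, both within 1.2-fold.

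Each immunoproteasome subunit was set against the constitutive subunit whose place it takes. PSMB5, the chymotrypsin-like subunit, was at 131, 145 and 124 FPKM in C4-2B MDVR with DMSO, APO and VER and at 107, 119 and 100.2 FPKM in CWR22Rv1. PSMB8 made up 1.27%, 1.49% and 2.11% of the FPKM of PSMB8 and PSMB5 in C4-2B MDVR and 0.822%, 0.842% and 1.02% in CWR22Rv1. VER gave the highest share in each line. PSMB6, the caspase-like subunit, was at 201, 247 and 190 FPKM and at 154, 194 and 128 FPKM. PSMB9 made up 0.446%, 0.423% and 0.449% of its pair in C4-2B MDVR and 1.04%, 0.475% and 1.26% in CWR22Rv1. In CWR22Rv1 the APO library was the low one, and in C4-2B MDVR the 3 shares lay close together. PSMB7, the trypsin-like subunit, was at 96.9, 118 and 98.3 FPKM and at 84.0, 116 and 79.6 FPKM. PSMB10 made up 18.3%, 15.5% and 17.5% of its pair in C4-2B MDVR and 14.8%, 9.74% and 11.4% in CWR22Rv1, lowest with APO in each line.

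**Figure D3:**
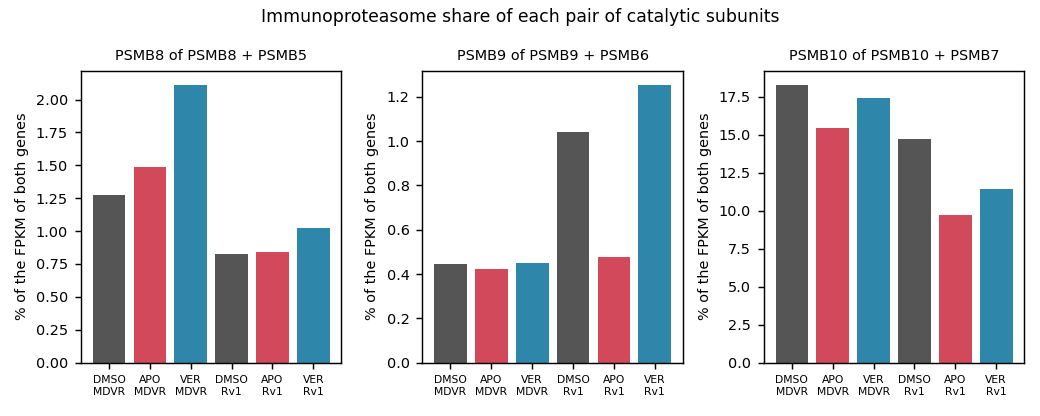
Percent of the summed FPKM of each pair of catalytic subunits that fell on the immunoproteasome gene (bars, 1 library each, axis from 0), for PSMB8, PSMB9 and PSMB10, with MDVR for C4-2B MDVR and Rv1 for CWR22Rv1. PSMB8 and PSMB9 stay at or below 2.11%, while PSMB10 takes 9.74% to 18.3%.

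The interferon-responsive neighbours of the immunoproteasome did not move as 1 group with it. Of 8 genes of interferon signalling and antigen processing, 6 were higher and 0 lower after APO in C4-2B MDVR, against 37.7% and 35.4% of all genes, and 5 and 0 after VER, against 35.6% and 34.9%. In CWR22Rv1 the counts were 4 and 2 after APO, against 35.6% and 39.2%, and 6 and 1 after VER, against 32.1% and 32.3%. The list is short, and its counts describe these libraries. IRF1, a transcription factor that activates PSMB9 and TAP1, was at 1.53, 9.39 and 4.09 FPKM with DMSO, APO and VER in C4-2B MDVR (2.54 and 1.36) and at 1.04, 2.08 and 1.42 FPKM in CWR22Rv1 (0.93 and 0.42). TAP1, a peptide transporter subunit that shares a bidirectional promoter with PSMB9, was at 12.6, 24.8 and 42.2 FPKM in C4-2B MDVR (0.97 and 1.74) and 16.8, 13.5 and 39.2 FPKM in CWR22Rv1 (-0.31 and 1.22). VER gave the highest TAP1 level in each line, where PSMB9 was within 1.2-fold of DMSO. TAP2 was at 18.2, 17.8 and 15.6 FPKM (-0.03 and -0.22) and at 8.59, 3.66 and 6.42 FPKM (-1.21 and -0.41). ERAP1, which trims peptides for presentation, was at 2.41, 7.69 and 8.84 FPKM (1.63 and 1.83) and at 3.54, 5.48 and 11.0 FPKM (0.61 and 1.60). The leukocyte marker PTPRC was at or near 0 in each library, as given above.

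The genes that control or feed the proteasome were examined in the same way. NFE2L1 was at 88.6 FPKM with DMSO, 213 after APO and 197 after VER in C4-2B MDVR (1.27 and 1.15) and at 49.1, 126 and 89.4 FPKM in CWR22Rv1 (1.36 and 0.86). Both inhibitor libraries stood above DMSO in each line, while the members' medians for APO and VER had opposite signs. Under TPM the members' median for APO in C4-2B MDVR was 0.0056. A link between the NFE2L1 level and the members was not tested. NFE2L2, the related factor of the oxidative stress response, was at 28.5, 46.0 and 29.5 FPKM (0.69 and 0.05) and at 15.8, 29.6 and 13.6 FPKM (0.91 and -0.22). DDI2, the protease that activates the NFE2L1 protein, was at 10.8, 4.82 and 8.41 FPKM (-1.15 and -0.36) and 14.2, 9.36 and 11.9 FPKM (-0.60 and -0.26). It was lower by more than 1.2-fold except after VER in CWR22Rv1, where it was within 1.2-fold of DMSO.

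Of all genes compared, 37.7% were higher and 35.4% lower after APO in C4-2B MDVR and 35.6% and 39.2% in CWR22Rv1, and after VER the percentages were 35.6% and 34.9%, and 32.1% and 32.3%. Of 10 further cap partners, 6 were higher and 0 lower after APO in C4-2B MDVR and 7 and 1 in CWR22Rv1, and after VER 3 and 2, and 2 and 2. ZFAND2A, also called AIRAP, a stress-inducible cap-binding protein, was at 15.4, 36.5 and 48.8 FPKM with DMSO, APO and VER in C4-2B MDVR (1.24 and 1.66) and 20.6, 51.8 and 36.3 FPKM in CWR22Rv1 (1.33 and 0.82). ZFAND5, a proteasome-activating protein, was at 49.5, 93.4 and 64.1 FPKM (0.91 and 0.37) and at 47.7, 114 and 61.1 FPKM (1.25 and 0.36). Both were lowest with DMSO in each line. Of the 6 genes of ubiquitin and its activation, 2 were higher and 2 lower after APO in C4-2B MDVR and 5 and 1 in CWR22Rv1, and 0 were higher after VER in either line, with 2 and 1 lower. Of the 8 genes of delivery to the proteasome, 0 were higher and 1 lower after APO in C4-2B MDVR, 3 and 2 in CWR22Rv1, 1 and 3 after VER in C4-2B MDVR and 0 and 5 in CWR22Rv1. Over all 36 related genes the counts were 16 and 4 after APO and 10 and 8 after VER in C4-2B MDVR, and 22 and 7 and 9 and 9 in CWR22Rv1. The numbers of genes in the shorter lists are small, and their departures from the percentages of all genes were not tested.

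The inhibitors were also set against each other directly within each line, a comparison chosen after the data were seen. VER was below APO for 44 of 47 members in C4-2B MDVR and 38 of 47 in CWR22Rv1. The same held for 56.4% and 56.5% of protein-coding genes above 10 FPKM. By more than 1.2-fold, 29 members (61.7%) were lower with VER than with APO in C4-2B MDVR, against 32.5% of genes, and 1 (2.13%) was higher, against 28.5%. In CWR22Rv1, 28 (59.6%) were lower, against 34.5%, and 3 (6.38%) higher, against 37.3%. The medians were -0.32 and -0.33, against -0.02 and 0.00 for all genes and -0.05 and -0.09 for protein-coding genes above 10 FPKM. Under TPM there were 16 lower and 1 higher in C4-2B MDVR (median -0.17, where genes above 1 FPKM were at 0.11) and 36 lower and 2 higher in CWR22Rv1 (median -0.51, where these genes were at -0.20). Of all genes, 25.3% were then lower and 37.4% higher in C4-2B MDVR, and 43.0% and 31.5% in CWR22Rv1.

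In both lines, 18 members (38.3%) were lower with VER than with APO by more than 1.2-fold, against 15.1% of 18059 genes, and 0 were higher, against 14.6%. The 18 were PSMA3, PSMA4, PSMA6, PSMB4, PSMB6, PSMC1, PSMC2, PSMC3, PSMC5, PSMD6, PSMD8, PSMD11, PSMD14, PSMD10, PSME4, PSMG1, PSMG2 and PSMG3. They include 5 core and 8 cap subunits. Under TPM 14 members were lower in both lines, 11 of them among the 18, and PSMA6, PSMB6, PSMC1, PSMC3, PSMC5, PSMD6 and PSMD10 left the list. With each library rescaled to a median ratio of 1, 16 of the 18 stayed. Below APO by any size in both lines were 36 members (76.6%), against 31.4% of 18059 genes and 38.7% of protein-coding genes above 10 FPKM. PSMB8 was the 1 member above APO in both. In CWR22Rv1 the furthest below were PSMF1 (-1.10) and PSMD7, a lid subunit (59.3 and 50.4 FPKM after APO and after VER in C4-2B MDVR, 77.5 and 37.7 FPKM in CWR22Rv1, -1.04 in the latter). The highest were PSMB9 (0.76), PSME2 (0.56) and PSME1 (0.30), whose APO libraries were the low ones.

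**Figure D4:**
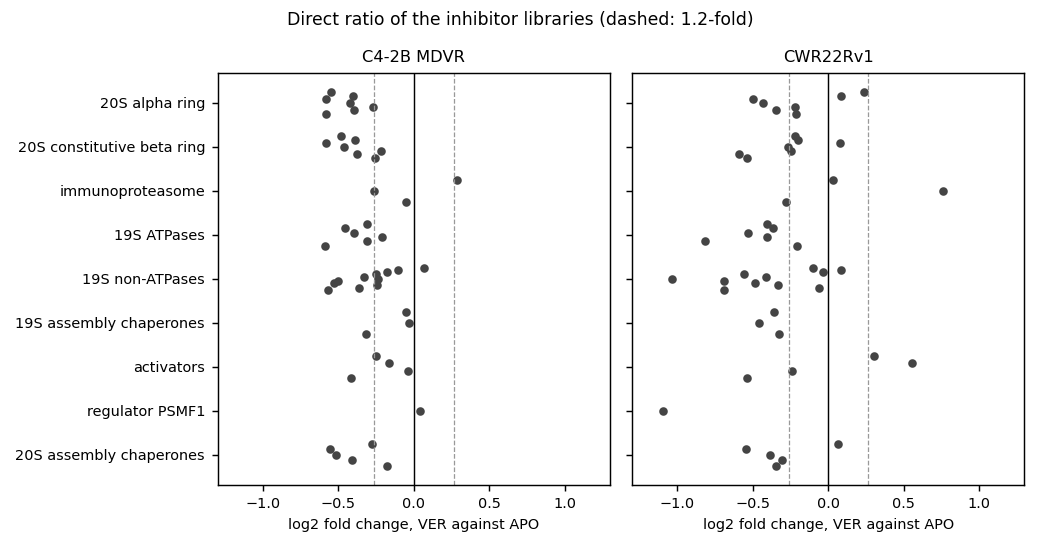
Log2 fold change of FPKM + 0.1 of VER against APO for each of 47 members (points), by role (rows) in each line (panels), with dashed lines at 1.2-fold. In C4-2B MDVR 44 points and in CWR22Rv1 38 points lie left of 0, and the points right of the upper dashed line are PSMB8 in C4-2B MDVR and PSMB9, PSME1 and PSME2 in CWR22Rv1. Of protein-coding genes above 10 FPKM, not drawn, 56.4% and 56.5% were below 0.

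Transcript length was set beside the log2 fold changes. Across the members their Spearman correlation was -0.34 after APO in C4-2B MDVR and 0.04 in CWR22Rv1, and -0.22 and -0.19 after VER. Over protein-coding genes above 10 FPKM it was -0.19 and -0.10 after APO and -0.07 and -0.09 after VER. For C4-2B MDVR against CWR22Rv1 with DMSO it was 0.33 across the members and 0.05 over these genes. These are correlations across genes of the same libraries. Most proteasome transcripts are short, with 26 of the 47 members under 1500 bases by the median length of their annotated coding transcripts. After APO in C4-2B MDVR, protein-coding genes above 10 FPKM had median log2 fold changes of 0.19 under 1500 bases (1847 genes), 0.00 from 1500 to 3000 bases (3151 genes) and -0.14 from 3000 bases (2533 genes). The members in the same classes had medians of 0.21 (26), 0.09 (14) and -0.14 (7). In CWR22Rv1 the genes had medians of 0.14, 0.01 and -0.04 after APO, and the members 0.19, 0.25 and -0.04. After VER the members lay below the genes in each class, at -0.10, -0.32 and -0.39 against 0.04, -0.04 and -0.08 in C4-2B MDVR and at -0.08, -0.11 and -0.47 against 0.03, -0.04 and -0.07 in CWR22Rv1. For VER against APO the members were at -0.32, -0.34 and -0.24 in C4-2B MDVR, against -0.17, -0.05 and 0.02 for genes, and at -0.32, -0.36 and -0.33 in CWR22Rv1, against -0.15, -0.08 and -0.06. The part of length in these results was not tested, and the classes were chosen after the data were seen. The class of 3000 bases and over holds 7 members and that of 1500 to 3000 bases 14.

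**Figure D5:**
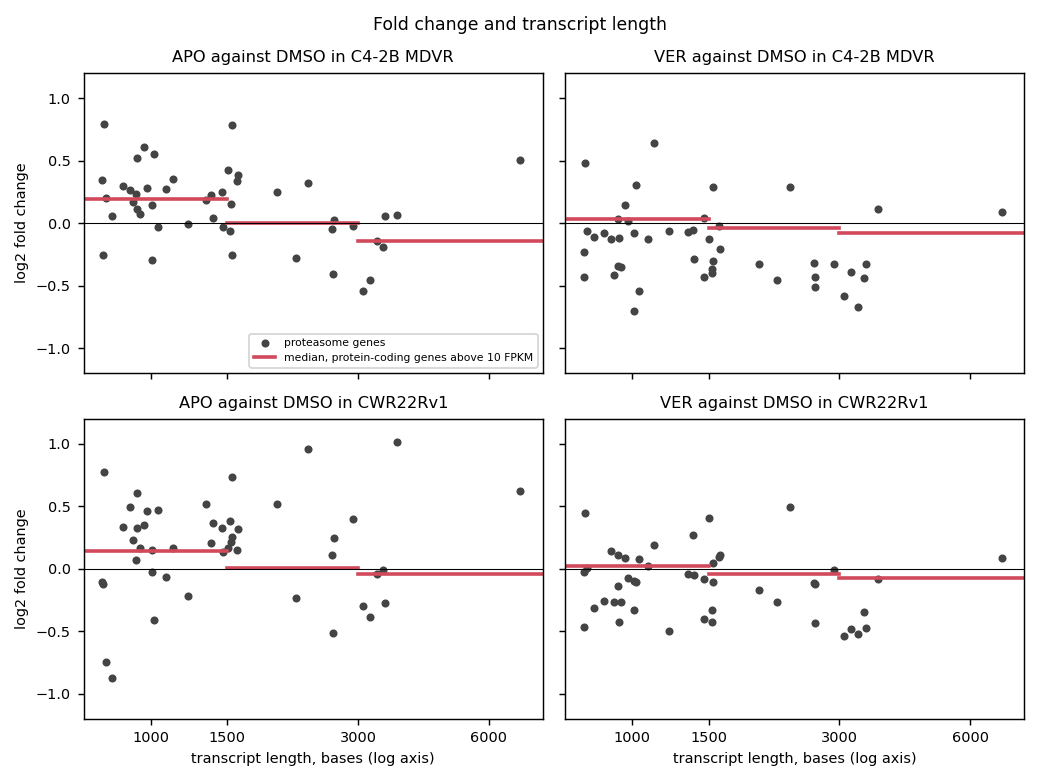
Log2 fold change against DMSO (vertical axis) and transcript length in bases (log axis) for 47 members (points), 1 panel for each inhibitor and line. Red lines give the median of protein-coding genes above 10 FPKM under 1500, from 1500 to 3000 and from 3000 bases, and in the APO panel of C4-2B MDVR the line steps down from 0.19 to -0.14.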

How the data were processed

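Paired-end RNA-seq of 6 libraries (C4-2B MDVR and CWR22Rv1, each with DMSO, APO or VER) was analysed. The authors deposited FPKM values per gene, made comparable across libraries with Cuffnorm. The submitters' processing notes name HISAT, Cufflinks, Cuffnorm and the build GRCh38. The annotation release and the strand setting of counting are not given in the sources used here. The labels describe a stranded KAPA kit with poly-A selection, and the paper a TruSeq kit. Groups came from the library titles.

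Gene identifiers were matched to GENCODE 29, which held 57047 of 60658, and coordinates are from that release. The gene now called PSME3IP1 has another symbol there and is outside the rule. Log2 fold changes of FPKM + 0.1 were computed for genes above 0.1 FPKM in at least 1 library of the line (of all 6 between lines), with a threshold of 1.2-fold. With 1 library per condition no test was made. The depth estimate, from the most frequent low value of FPKM times length, gives no counting interval. Genes named were the 3 highest and 3 lowest members of each comparison with DMSO or between the lines, the catalytic subunits, activators, PSMF1, POMP and PSMG1 to PSMG4, members under 0.1 FPKM throughout, and, of the related genes, NFE2L1, NFE2L2, IRF1, TAP1, TAP2 and those past 2-fold after an inhibitor. A gene this rule also covers is not reported here. PSMD5, which completes its role group, and the members named for VER against APO were named after their values were seen, as were members listed by count. The members and lists were chosen with earlier results of these data known. Alternatives were pseudocounts of 0.01 and 1, 3 other filters, rescaling to a median ratio of 1 or to the same sum (TPM), and thresholds of 1.5-fold and 2-fold. Functions were tested on simulated data. Software was matplotlib 3.10.9, scipy 1.17.1, numpy 2.4.6, pandas 2.3.3 and Python 3.11.15.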

Additional observations from a re-analysis of the deposited data

Results flagged for a closer look

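PSME1, the alpha subunit of the PA28 activator, was past 1.2-fold in opposite directions after APO in the lines. Its log2 fold change was 0.55 in C4-2B MDVR and -0.41 in CWR22Rv1, with 1 library on each side of each comparison. The difference was not tested.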

How the results depend on the processing

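For the comparisons with DMSO and between the lines, 67 counts and medians of the members under alternatives stayed close (counts, over both directions, within 1.5 times, medians within 0.1 and on the same side of 1.2-fold) and 13 moved. Under TPM the median after APO was 0.0056 in C4-2B MDVR and 0.32 in CWR22Rv1. In C4-2B MDVR the split after APO then turned from 16 higher and 5 lower to 7 higher and 9 lower, and the median of the cap from 0.02 to -0.13. The shares of all genes under TPM were 32.2% higher and 42.2% lower. With each library rescaled to a median ratio of 1, the median of C4-2B MDVR against CWR22Rv1 was 0.27. At a threshold of 1.5-fold, 3 members were past it after APO and 3 after VER in C4-2B MDVR, 8 after APO and 0 after VER in CWR22Rv1, and 21 between the lines. Of all genes compared, 25.2% were then higher and 23.1% lower after APO in C4-2B MDVR, and 23.7% and 22.4% after VER. In CWR22Rv1 the shares were 23.8% and 27.5%, and 19.1% and 17.5%, and between the lines 26.3% and 31.9%. At 2-fold the counts were 0, 0, 1, 0 and 5. The shares of genes higher and lower were 15.4% and 13.3%, and 14.4% and 13.3%, in C4-2B MDVR. They were 13.8% and 16.8%, and 10.8% and 8.92%, in CWR22Rv1, and 17.1% and 24.0% between the lines. For VER against APO, under alternatives added after the data were seen, 17 members were past 1.2-fold in C4-2B MDVR under TPM, with medians of -0.17 there and -0.51 in CWR22Rv1. In C4-2B MDVR 37.4% of all genes were then higher and 25.3% lower. At 1.5-fold 1 member was past the threshold in C4-2B MDVR and 7 in CWR22Rv1, and at 2-fold 0 and 2. Of all genes, 15.4% were higher and 17.7% lower at 1.5-fold in C4-2B MDVR, and 25.6% and 20.6% in CWR22Rv1. At 2-fold the shares were 8.68% and 10.5%, and 15.6% and 10.5%. Most differences of the members after an inhibitor were thus under 1.5-fold. Of the values of single members named by the rule, 482 kept their side of the threshold, 9 lost it, 9 gained it and 0 reversed. Adding pseudogenes could not change the immunoproteasome shares, since the 1 pseudogene of a paired subunit is listed at 0. The labels give no replicate numbers, and a fit over both lines with line as a block was not made. With 1 library per condition no library could be left out. Depth limits PSMB8 and PSMB9, which rest on few fragments.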
